A study of Homo sapiens with 5 samples.

Results

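The MIR142 locus is the stretch of chromosome 17 from 56370000 to 56450000 (hg19, 80 kb) around MIR142, a microRNA gene near 56.4086 Mb. Its members were the peaks that shared at least 1 bp with this stretch in lists made by CUT&RUN, which sequences the DNA cut free by a nuclease tethered to an antibody on chromatin. The cells were MOLT-4, a long-established line from a human T cell acute lymphoblastic leukaemia, for which the labels give no treatment or genetic change. The lists came from 1 library each for H3K4me3, for RUNX1 (antibody ab23980) and for a target labelled SMA4, a label that does not spell out the protein and is used here as given. The labels also name 2 IgG controls, which were not analysed here. The locus held 16 of the 51392 peaks on chromosomes 1 to 22 and X, made up of 9 peaks of the H3K4me3 list (13181 in all), 7 of the RUNX1 list (36736) and 0 of the SMA4 list (1475). It was chosen because one of the widest RUNX1 peaks meets one of the widest H3K4me3 peaks there, so the widths and overlaps of its peaks are given as descriptions without tests.

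MIR142 is transcribed across the blood lineages as a longer precursor, which is cut to a hairpin and then to a duplex whose arms, miR-142-5p and miR-142-3p, can each be loaded into Argonaute and repress transcripts matching their seed. In mice the gene is needed for normal development and function of several lymphoid and myeloid cell types. RUNX1 is a runt-domain transcription factor required for definitive blood formation and for thymocyte development. H3K4me3, trimethylation of lysine 4 of histone H3, marks active and poised promoters, usually in short blocks around a transcription start, with much broader blocks at some genes central to a cell's identity.

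The gene's products are shown because the gene names the locus and its position lies inside an H3K4me3 peak. The hairpin has 87 nt, on the minus strand of chr17:58331232-58331318 in the RefSeq annotation of GRCh38.p14, a different build from that of the peaks. Capitals mark the mature arms, miR-142-5p at bases 16 to 36 and miR-142-3p at bases 52 to 74, which leave 15 nt between them.
MIR142 hairpin: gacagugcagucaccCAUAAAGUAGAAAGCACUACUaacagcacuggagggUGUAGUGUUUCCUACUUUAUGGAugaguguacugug

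In the mature sequences the capitals mark the seed, bases 2 to 8, which sets most of the choice of target transcripts. Of 2545 mature miRNAs in the RefSeq table, 2 had the seed of miR-142-5p, the arm itself and miR-5590-3p from chromosome 2, and 1 had the seed of miR-142-3p, the arm itself. The pair that shares a seed is followed by the arm that does not.
hsa-miR-142-5p: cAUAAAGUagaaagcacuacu
hsa-miR-5590-3p: aAUAAAGUucauguauggcaa
hsa-miR-142-3p: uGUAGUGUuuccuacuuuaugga

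In the annotation, genes were ordered by start position, the lower coordinate of each. Before MIR142 came TSPOAP1 (formerly BZRAP1, which encodes a binding protein of the mitochondrial translocator protein). The long non-coding RNAs TSPOAP1-AS1 and MIR142HG, the host transcript of the microRNA, also came before it. After it came MIR4736, SUPT4H1 (a transcription elongation factor subunit) and RNF43 (a ubiquitin ligase that dampens Wnt signalling). This order does not show how far a gene reaches. In GRCh38.p14 the promoter of MIR142HG (58332471-58332770) and a promoter of TSPOAP1-AS1 (58336952-58337251) lie at higher coordinates than the hairpin. Both genes thus reach beyond the hairpin. No hg19 annotation was used here, so peaks were not assigned to the other genes. They were placed relative to MIR142 itself and to the higher-coordinate end of TSPOAP1 at about 56.406 Mb. Whether transcription of TSPOAP1 starts or stops at that end was not examined.

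The peaks formed 5 elements, each a run of H3K4me3 or RUNX1 peaks without a break. The second held MIR142, spanned 12.8 kb and contained 6 of the 9 H3K4me3 peaks and 3 of the 7 RUNX1 peaks. The other 4 spanned 249 to 1641 bp. Between neighbouring elements lay 9946, 3374, 5982 and 234 bp without a peak. H3K4me3 and RUNX1 were thus concentrated in a single block over and above the microRNA, with smaller elements on its higher-coordinate side and 1 on the lower.

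**Figure D1:**
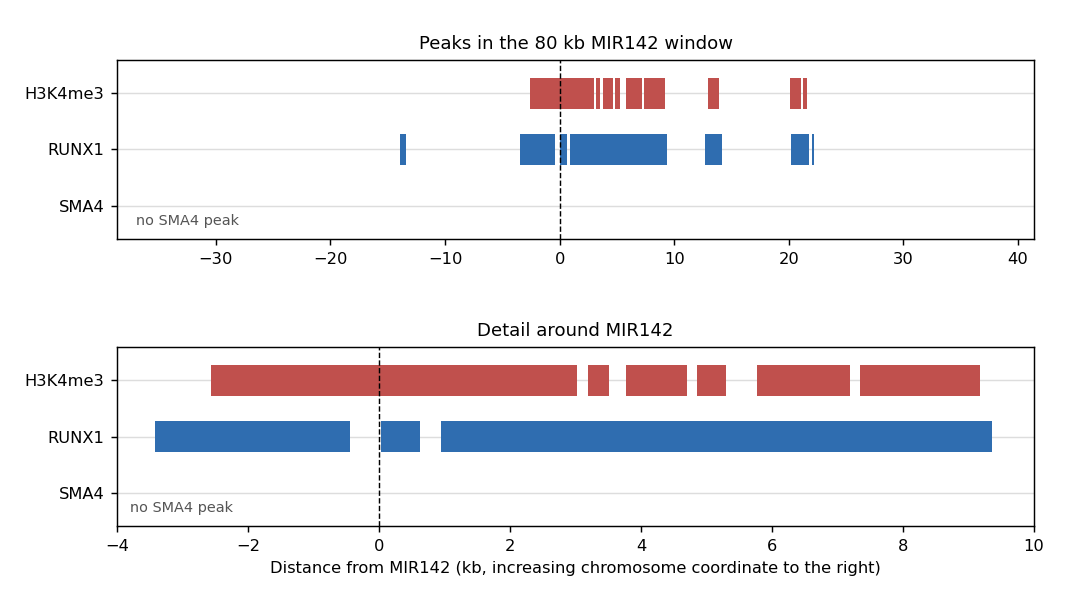
Peaks of the 3 lists in the 80 kb window (top) and close to MIR142 (bottom), plotted by distance in kb from MIR142 at 0 (dashed line); each bar is 1 peak drawn to scale. The MIR142 block holds 6 H3K4me3 and 3 RUNX1 peaks, the rounded MIR142 position is 36 bp from the nearest RUNX1 peak, and the SMA4 row is empty.

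The H3K4me3 peak over MIR142 ran from 56406035 to 56411617 and was 5583 bp wide. It was the 10th widest of the 13181 H3K4me3 peaks and the widest on chromosome 17, where the median of 816 peaks was 944 bp. MIR142, at 56.4086 Mb, lay 2565 bp from its lower end and 3017 bp from its upper end, so the mark extended to both sides of the microRNA. The lower end of the peak was 35 bp from the higher-coordinate end of TSPOAP1 as rounded to 56.406 Mb. That distance is within the rounding of that position.

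Above this peak, 5 further H3K4me3 peaks continued the block to 56417769. In order of coordinate they were 320, 934, 443, 1430 and 1820 bp wide. The widest of them was wider than most of the list, since 16.2% of all H3K4me3 peaks were at least as wide, whereas 77.5% were at least as wide as the narrowest. The breaks between the 6 peaks were 166, 263, 158, 461 and 157 bp long. The mark therefore continued above MIR142 as a row of closely spaced peaks. All 5 breaks lay inside 1 RUNX1 peak. Over the whole list, 917 of 1905 breaks of up to 500 bp between neighbouring H3K4me3 peaks did so (48.1%, 95% Wilson interval 45.9 to 50.4%). The 5 breaks share the wide RUNX1 peak for which the locus was chosen, so their count follows from that choice.

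The widest RUNX1 peak of the locus ran from 56409543 to 56417957, beginning 943 bp above MIR142. At 8415 bp it was the 5th widest of 36736 RUNX1 peaks and the widest of 2133 on chromosome 17, where the median was 669 bp. It contained the 5 upper H3K4me3 peaks of the block whole and shared 2075 bp with the peak over MIR142, which is 24.7% of the RUNX1 peak and 37.2% of the H3K4me3 peak. In all it overlapped 6 H3K4me3 peaks, and H3K4me3 covered 83.4% of its length. Only 2 RUNX1 peaks of the whole list overlapped at least 6 H3K4me3 peaks (0.00544%). The other was the widest RUNX1 peak, on chromosome 9 from 132646407 to 132658118, which overlapped 7 H3K4me3 peaks that covered 19.3% of it. At MIR142 the wide RUNX1 peak and the mark thus ran together for most of the peak's length, and on chromosome 9 they did not. The locus was chosen for the meeting of wide peaks, so its count of 6 follows in part from that choice.

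The RUNX1 peak on the TSPOAP1 side ran from 56405183 to 56408158 and was 2976 bp wide, the 291st widest of the list, with 0.795% of RUNX1 peaks at least as wide. It began 852 bp below the H3K4me3 peak and covered the higher-coordinate end of TSPOAP1, and 71.4% of it lay in H3K4me3. The third RUNX1 peak of the block ran from 56408636 to 56409229. It was 594 bp wide, close to the list median of 645 bp, and lay wholly inside the H3K4me3 peak.

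The rounded position of MIR142 fell in a break between RUNX1 peaks, close to the edge of one. The breaks between the 3 RUNX1 peaks of the block were 477 bp, from 56408159 to 56408635, and 313 bp, from 56409230 to 56409542. That position lay in the first, 442 bp above the lower RUNX1 peak and 36 bp below the next. It is rounded to the nearest 100 bp, and the hairpin has 87 nt, so whether the hairpin lies partly inside the third RUNX1 peak is not resolved. Both breaks lay inside the H3K4me3 peak over MIR142. Over the whole list, 1040 of 4384 breaks of up to 500 bp between neighbouring RUNX1 peaks lay inside 1 H3K4me3 peak (23.7%, interval 22.5 to 25.0%). Both breaks share the wide H3K4me3 peak for which the locus was chosen, so their count follows from that choice.

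Because the breaks of each list were filled by the other, the block was unbroken over 12775 bp, from 56405183 to 56417957. RUNX1 peaks covered 93.8% of it, H3K4me3 peaks 82.4% and both together 76.2%. H3K4me3 without RUNX1 amounted to 790 bp, all of it in the RUNX1 breaks, and RUNX1 without H3K4me3 to 2245 bp. The block was the widest of the 37081 unbroken stretches that the H3K4me3 and RUNX1 lists form together, and 1 of 2 with at least 6 H3K4me3 peaks (0.00539%). The locus was chosen for wide peaks that meet, so this rank and count follow in part from that choice. The next widest were the chromosome 9 stretch of 11712 bp, and one on chromosome 4 from 109085406 to 109095910 of 10505 bp. Among the 10 widest, 9 held H3K4me3 and 3 held SMA4, and the MIR142 block was the only one on chromosome 17. Over the whole lists, 2.39% of H3K4me3 peaks and 2.56% of RUNX1 peaks overlapped an SMA4 peak.

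**Figure D2:**
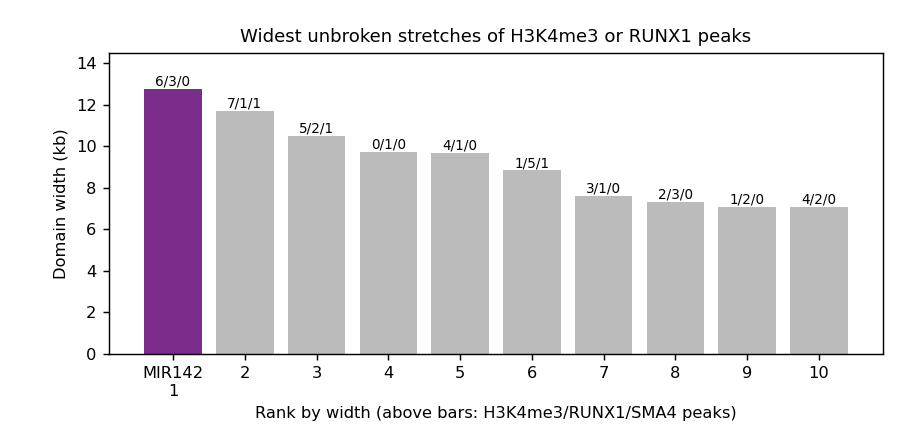
Width in kb of the 10 widest unbroken stretches of H3K4me3 or RUNX1 peaks, ordered by rank, with the numbers of H3K4me3, RUNX1 and SMA4 peaks above each bar. The MIR142 block (rank 1, 12.8 kb), at a locus chosen for wide peaks that meet, holds 6, 3 and 0 peaks. The tenth stretch measures 7076 bp.

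The rank depends on what counts as unbroken. When breaks of up to 500 bp were joined, a choice made after the lists had been seen, the MIR142 block kept its bounds but ranked 4 behind stretches that grew, the widest of them 16854 bp. With H3K4me3 peaks alone and the same joining, the 6 peaks became 1 stretch of 11735 bp, the widest of the mark, ahead of 8846 bp. With RUNX1 peaks alone the 3 peaks became 1 stretch of 12775 bp, the second widest. The peak lists carry no heights, so nothing shows how the signal varies along the block.

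Beyond the block, 2 elements on the higher-coordinate side paired RUNX1 with H3K4me3. In the first, a RUNX1 peak of 1403 bp from 56421332 to 56422734 enclosed an H3K4me3 peak of 920 bp, reaching 247 bp below it and 236 bp above it. H3K4me3 covered 65.6% of this RUNX1 peak, and its RUNX1 and H3K4me3 peaks were centred on nearly the same place. In the second, a RUNX1 peak of 1603 bp from 56428755 to 56430357 overlapped 2 H3K4me3 peaks, of 967 and 361 bp, of which the wider began 38 bp below it. H3K4me3 covered 80.5% of it. The H3K4me3 peaks of these elements were near the list median of 938 bp or narrower, while 12.1% and 8.32% of RUNX1 peaks were at least as wide as theirs.

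The remaining 2 RUNX1 peaks had no H3K4me3. A peak of 542 bp lay on the TSPOAP1 side from 56394695 to 56395236, 13364 bp below MIR142. The other, of 249 bp from 56430592 to 56430840, lay 234 bp above the last paired element and was close to the narrowest width in the list, 221 bp.

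**Figure D3:**
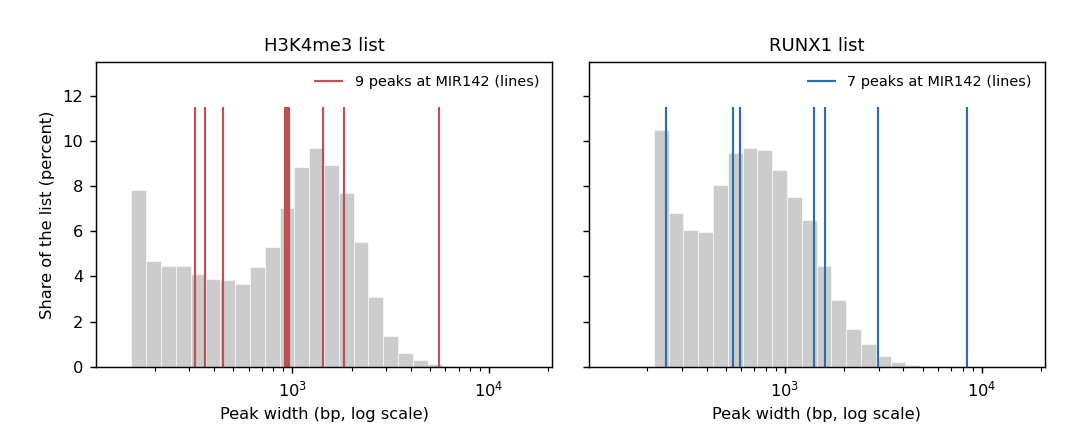
Widths of the locus's peaks (coloured lines, 9 H3K4me3 at left and 7 RUNX1 at right) over the width distribution of the whole list (grey bars, percent of the list), with peak width in bp on a log scale. One peak in each list, 5583 bp for H3K4me3 and 8415 bp for RUNX1, lies far to the right of its list; a RUNX1 peak of 2976 bp is in the upper tail, and the others lie within the bulk.

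All 9 H3K4me3 peaks of the locus overlapped RUNX1, against 88.1% of the H3K4me3 list. Of the 7 RUNX1 peaks 5 overlapped H3K4me3, against 32.2% of the RUNX1 list. The locus was chosen for such an overlap, so these counts add nothing to the choice. Of the bases in H3K4me3 peaks, 93.5% were also in RUNX1 peaks at the locus and 71.4% over chromosomes 1 to 22 and X. Of the bases in RUNX1 peaks, 75.7% were also in H3K4me3 peaks at the locus and 34.2% over the chromosomes.

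The peaks were spread unevenly around the microRNA. Above MIR142, 24.7% of the window was in H3K4me3 peaks and 29.6% in RUNX1 peaks. Below it, the values were 6.65% and 9.11%. Over chromosomes 1 to 22 and X, H3K4me3 peaks covered 0.461% and RUNX1 peaks 0.962%, values that a window chosen for wide peaks exceeds by that choice. All 2566 bp of H3K4me3 below MIR142 belonged to the peak that spans it. Outside the locus the nearest H3K4me3 peaks left 109 kb without the mark on the lower side and 161 kb on the upper side. How common such distances are in the list was not examined. Measured from the lower edge of the window, the next RUNX1 peak (681 bp wide) lay 73.0 kb away and the next H3K4me3 peak 73.1 kb. Beyond the upper edge a RUNX1 peak of 1505 bp began at 6.20 kb and the next H3K4me3 peak at 141 kb.

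No SMA4 peak lay in the window, so 0 of the 9 H3K4me3 peaks and 0 of the 7 RUNX1 peaks overlapped one, against 2.39% of the H3K4me3 list and 2.56% of the RUNX1 list. The nearest were 2.04 Mb below MIR142, at 54367819 to 54368371, and 2.40 Mb above it, at 58807722 to 58807887. An absence is the common outcome for a list this short, since 7.32% of windows of the same length around H3K4me3 peaks held an SMA4 peak (95% Wilson interval 6.89 to 7.78%). Many of these windows overlap one another, so this interval is too narrow. Chromosome 17 had 24 SMA4 peaks in all. Among the 100 widest H3K4me3 peaks, 16 had an SMA4 peak within such a window and 9 overlapped one. Among the 100 widest RUNX1 peaks the counts were 36 and 21. Per the file headers, batch and peak-calling pipeline differed for SMA4, so that target, batch and pipeline cannot be told apart. Signal below the list's threshold was not analysed here.

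To see where the locus stands, it was compared with windows of 80 kb centred on each of the 13181 H3K4me3 peaks. The MIR142 window held 12778 bp in H3K4me3 peaks, against a median of 1984 bp, and 15782 bp in RUNX1 peaks, against a median of 2559 bp. At least as many H3K4me3 bases were found in 34 windows (0.258%), of which 9 were centred on the locus's own peaks and the other 25 formed 5 regions. At least as many RUNX1 bases were found in 95 windows (0.721%), of which 9 were the locus's own and the other 86 formed 25 regions. Only the 9 windows of the locus itself reached both amounts (0.0683%), so no window elsewhere was as rich in both lists. These shares describe a locus picked for its wide peaks and are not p-values.

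In numbers of peaks the locus stood out less. It had 7 RUNX1 peaks, and 15.7% of windows had at least as many, with a median of 3. It had 9 H3K4me3 peaks, and 1.28% of windows had at least as many. The 86 windows elsewhere with as many RUNX1 bases reached them with a median of 18 RUNX1 peaks, and none with fewer than 9. The locus thus held its RUNX1 bases in fewer and wider peaks than those windows did. It was chosen for a very wide RUNX1 peak, of 8415 bp, so this difference follows in part from the choice. Of the 86 windows, 29 held an SMA4 peak (33.7%), against 7.32% of all 13181 windows, although many of the windows overlap one another.

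**Figure D4:**
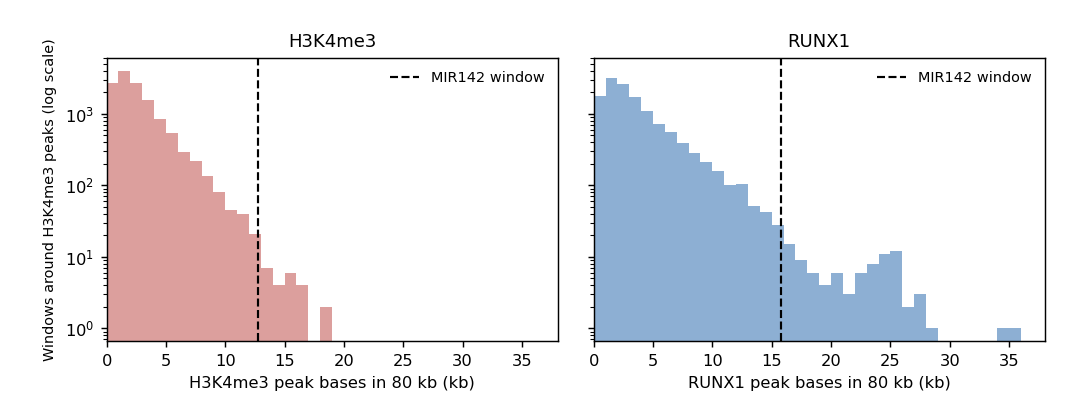
Number of 80 kb windows around H3K4me3 peaks (log scale) by the kb in H3K4me3 peaks (left) or RUNX1 peaks (right), with the MIR142 window as a dashed line. The MIR142 window lies in the far tail of each, with 34 windows at or beyond it for H3K4me3 and 95 for RUNX1.

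The peak over MIR142 was also set against the 100 widest H3K4me3 peaks, 3712 to 8846 bp wide. It is itself among the 100 and is included in their counts. It overlapped 3 RUNX1 peaks, against a median of 2 for the 100, of which 42 overlapped at least 3. Over the whole list, 130 H3K4me3 peaks overlapped at least 3 RUNX1 peaks (0.986%). RUNX1 covered 85.8% of the peak over MIR142, against a median of 71.3% for the 100 (quartiles 59.4 and 85.0%), and 21 of them were covered at least as far. All 100 overlapped RUNX1, so the overlap as such is shared by every broad block of the mark examined, and the RUNX1 coverage at MIR142 was just above the upper quartile.

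The RUNX1 peak at MIR142 was set against the 100 widest RUNX1 peaks, 3847 to 11712 bp wide. That peak is itself among the 100 and is included in their counts. H3K4me3 covered 83.4% of it, against a median of 23.8% (quartiles 0 and 70.0%), and 21 of the 100 were covered at least as far. Of the 100, 71 overlapped H3K4me3 at all, with a median of 1 peak. Widest RUNX1 peaks thus ranged from wholly outside the mark to largely within it, and the one at MIR142 belonged with those within it.

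Outside the window, 12822 pairs of overlapping H3K4me3 and RUNX1 peaks were found, and in none were both peaks at least as wide as at MIR142. The H3K4me3 peak was at least as wide in 26 pairs and the RUNX1 peak in 16. The locus was chosen for the widths of both peaks, so these counts follow in part from that choice. The 5 pairs most like the MIR142 pair were chosen by the smallest distance in log2 H3K4me3 width, log2 RUNX1 width and log2 shared bases. The nearest was on chromosome 4, an H3K4me3 peak of 4615 bp from 40198320 to 40202934 with a RUNX1 peak of 4590 bp, sharing 1890 bp (distance 0.926 on the log2 scale). The second was on chromosome 2, 4906 bp of H3K4me3 from 43449800 to 43454705 with 5902 bp of RUNX1 (distance 1.02). The third was the chromosome 4 stretch named above, 4898 bp of H3K4me3 with 9821 bp of RUNX1 (distance 1.06). The others were on chromosome 11 from 117694633 to 117699019 and on chromosome 12 from 12869191 to 12872747 (H3K4me3 coordinates, both at distance 1.09).

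The distance takes in the shared bases as well as the widths, and the third pair, close to the MIR142 pair in both widths, shared 4214 bp against 2075 bp at MIR142. The MIR142 pair shared the smallest part of its RUNX1 peak, 24.7%, against 41.2 to 64.0% in the 5 others. The pairs were chosen on widths and shared bases, so these shared parts follow in part from that choice. They count only the H3K4me3 peak of each pair, and H3K4me3 peaks together covered 83.4% of the RUNX1 peak at MIR142. The RUNX1 peak at MIR142 overlapped 6 H3K4me3 peaks, against 1 to 5 in the other pairs. In the surrounding 80 kb the MIR142 locus had 7 RUNX1 peaks and no SMA4 peak, against 6 to 13 RUNX1 peaks and 0 to 2 SMA4 peaks around the others. SMA4 was present around 3 of the 5, against 16 of the 100 widest H3K4me3 peaks and 7.32% of windows around all H3K4me3 peaks.

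**Figure D5:**
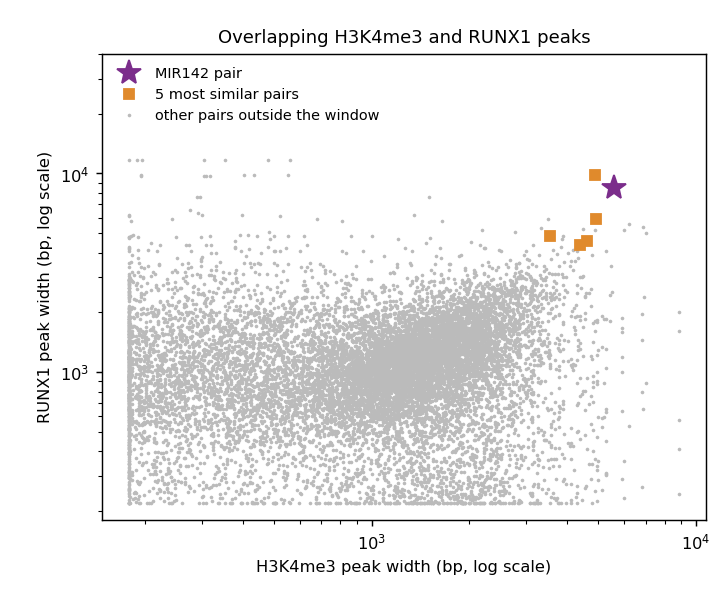
RUNX1 peak width against H3K4me3 peak width (both in bp, log scales) for pairs of overlapping peaks. The MIR142 pair (star, 5583 and 8415 bp), chosen for its wide peaks, lies at the upper right with no pair exceeding it in both widths. The 5 most similar pairs (squares) were chosen on shared bases as well as widths. All have narrower H3K4me3 peaks, of 3557 to 4906 bp, and only the third has a wider RUNX1 peak, of 9821 bp.

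RefSeq promoter windows of 300 bases, which end 50 bases after a transcript start, were found for MIR142HG, TSPOAP1-AS1, SUPT4H1 and RNF43 among the named genes. They were searched on both strands for TGTGGT and TGCGGT, forms of the motif recognised by the runt domain. Either motif occurred in 19.6% of 35116 promoters in the table, TGTGGT in 13.1% and TGCGGT in 7.29%. The promoter of MIR142HG is printed whole, on the minus strand of chr17:58332471-58332770 in GRCh38.p14, because the host transcript lies in the annotation where the microRNA does. It held neither motif, so it has no capitals.
MIR142HG promoter: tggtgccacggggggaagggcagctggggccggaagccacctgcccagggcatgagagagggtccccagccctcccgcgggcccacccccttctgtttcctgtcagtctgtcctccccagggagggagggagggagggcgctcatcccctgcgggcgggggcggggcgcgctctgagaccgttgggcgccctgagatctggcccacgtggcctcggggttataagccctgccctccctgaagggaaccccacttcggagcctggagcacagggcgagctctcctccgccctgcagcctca

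Its G and C content was 71.3%, against a median of 58.7% over all promoters (quartiles 47.0 and 68.0%), and it held 17 CpG dinucleotides against a median of 14. Both promoters of TSPOAP1-AS1 held neither motif. The SUPT4H1 promoter and 1 of the 2 RNF43 promoters held TGTGGT, on the same and on the opposite strand relative to the gene. The stretches around them are shown with the motif in capitals, from chr17:58352159-58352188 and chr17:58417537-58417566, both minus strand in GRCh38.p14.
SUPT4H1 promoter motif: gggtgcacaggcTGTGGTcgtctatctccc
RNF43 promoter motif: caccaattacaaACCACAggcttcctgctc

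These windows were not placed within the hg19 peaks, and a motif match is a description of the letters. The RUNX1 block at MIR142 is far longer than any of these promoters, and most of its sequence was not examined here.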

How the data were processed

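CUT&RUN peak lists of 3 MOLT-4 libraries were analysed, 1 library per antibody, so no value has a replicate check. The authors deposited peak coordinates (chromosome, start, end, running name) with no score, fold or read count, so depth is unknown. MACS2 gave the H3K4me3 and RUNX1 lists and cutruntools, at a q threshold of 0.01, the SMA4 list, in folders named for different batches, per the file headers. Per the submitters' processing notes, MACS2, SEACR and hg19 were used, while no aligner, and no threshold for the H3K4me3 and RUNX1 lists, is given in the sources used here. Each such step sets where a peak ends, and thus its width.

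The analysis covered chromosomes 1 to 22 and X, with overlap at 1 bp or more, in Python 3.11.15 with NumPy 2.4.6 and SciPy 1.17.1. Interval functions were tested on simulated data. Windows were centred on H3K4me3 peak midpoints. Intervals are 95% Wilson intervals, cover counting error only and treat peaks, breaks and overlapping windows as independent. Named items were all peaks of the window, 3 annotated genes before and 3 after MIR142 by start position, and the 5 most similar peak pairs. The members, lists and yardsticks were chosen with earlier results of these data known. The unbroken stretches, the breaks between peaks and the 100 widest peaks were chosen once the lists had been examined. Gene order and sequences are from RefSeq GRCh38.p14, and no coordinates were converted. No hypothesis test was run.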

Additional observations from a re-analysis of the deposited data

How the results depend on the processing

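The count of 0 SMA4 peaks held under each alternative tried. The 2075 bp shared by the widest peaks was recomputed only with touching peaks merged, and no peaks of a list touch, so it was not varied. Keeping peaks at least as wide as their list's median left 4 H3K4me3 and 4 RUNX1 peaks in the window, of which 4 H3K4me3 and 3 RUNX1 peaks overlapped the other list, covering 12.2% (H3K4me3) and 18.0% (RUNX1) of the window. A window of 40 kb had 31.4% in H3K4me3 and 37.9% in RUNX1 peaks, and one of 160 kb 7.99% and 11.7%, as the peaks are concentrated near its centre. Requiring midpoints in the window changed no count or coverage of the window, and merging had nothing to merge. The share of windows with at least as many H3K4me3 bases, RUNX1 bases and RUNX1 peaks was 0.00791%, 0.0660% and 2.20% over a grid of the chromosomes, 0.0455%, 0.379% and 8.44% in 40 kb windows, 2.03%, 1.76% and 19.5% in 160 kb windows, 1.10%, 2.57% and 27.5% on chromosome 17, and 3%, 8% and 46.0% around the 100 widest H3K4me3 peaks, the last chosen after seeing the data. On chromosome 17 the 9 windows with at least as many H3K4me3 bases were all centred on the locus's own peaks. The 100 widest H3K4me3 peaks include the peak over MIR142. The cause of the shifts between these settings was not tested. By width the MIR142 block ranked 1 as reported, 4 with breaks of up to 500 bp joined and 2 for RUNX1 alone with such joining. A stricter peak threshold could not be applied, as the lists carry no scores. No paired analysis was possible because each antibody had 1 library.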
